A study of Mus musculus with 4 samples.

Results

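The genes described here are 51 macrophage and myeloid genes among the 22802 gene loci of an RNA sequencing table of mouse testicular interstitial cells. They were taken by name from a list of markers of macrophages, of the wider myeloid lineage and of antigen presentation. All 51 were found, 50 by their current symbol and Adgre1 by an older symbol, and none lay in a row that names several genes. The cells came from the testes of C57BL/6J mice at postnatal day 10. All mice carried 2 transgenes, mFLE-Cre and CAG-CAT-EGFP, and the reporter makes EGFP after Cre recombination. The tested cells were sorted as EGFP-positive and laminin-positive (2 libraries), and the cells they were set against as EGFP-positive and laminin-negative (2 libraries). In the design text of the series the laminin-negative sort is EGFP weak, so EGFP level may differ between the sorts along with laminin. The sources used here do not say in which cells mFLE drives Cre or how many animals went into each library. The libraries are therefore not known to be separate animals, and every p-value measures only the spread between them, which may be technical.

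Macrophages are phagocytes that depend on the receptor for colony stimulating factor 1, take up dying cells and pathogens through scavenger and Fc receptors, and make the complement component C1q. The testis holds a resident population in the interstitium, beside the Leydig cells, and another on the wall of the seminiferous tubules beside the peritubular myoid cells. The interstitial macrophages are known for high Csf1r and little MHC class II, and the peritubular ones for MHC class II. Neither sort selected for or against leukocytes by a leukocyte marker, as far as the labels say.

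Most of the 51 genes were low in both sorts, and they did not move as a block. Among the 19 genes called higher in laminin-positive cells were the 3 C1q chains, Csf1r, the mannose receptor gene Mrc1, stabilin-1 (Stab1) and the signalling adaptor Tyrobp, with means of 2.60 to 8.78 FPKM in laminin-positive cells and 12.1 to 31.9 times their laminin-negative level. Of the 19, 9 were at least 10-fold higher and 10 between 2- and 10-fold. Laminin-negative means were 0.5 FPKM or less for 13 of the 19, which leaves the size of these ratios uncertain. FPKM counts sequenced fragments per kilobase of a transcript and is scaled to the fragments of the library. The inhibitory Fc receptor gene Fcgr2b went the other way, at 0.688 FPKM in laminin-positive and 28.5 FPKM in laminin-negative cells. Cyba, Irf8, Mpeg1 and the MHC class II genes H2-Aa and H2-Eb1 were lower in laminin-positive cells too. In bulk RNA such as this, fewer cells of a type and less RNA per cell cannot be told apart.

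Both laminin-positive libraries lay above both laminin-negative libraries for 38 of the 51 genes (74.5%) and below both for 8 (15.7%), and the groups overlapped for 5. Over the 18255 loci above 0 in any library, the corresponding shares were 36.3% and 31.3%. Genes with at least 1 FPKM in at least 2 libraries were tested with limma on log2(FPKM + 1), which left 26 of the 51. A gene can pass this filter through its higher group alone, so the 25 genes below it are accounted for separately. Of the 26 tested, 19 were called higher and 6 lower in laminin-positive cells at an adjusted p under 0.05, and 1 was not called. Over all 12348 tested genes, 26.6% were called higher and 26.3% lower. Without a filter, 30 of the 51 were called higher (58.8%), 7 lower (13.7%) and 14 not called. Over all 18255 loci, 19.0% were higher and 17.3% lower, so lower calls were no more frequent among the 51. The median log2(FPKM + 1) difference over all 51 was then 0.59, beside 0.02 over all loci.

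**Figure D1:**
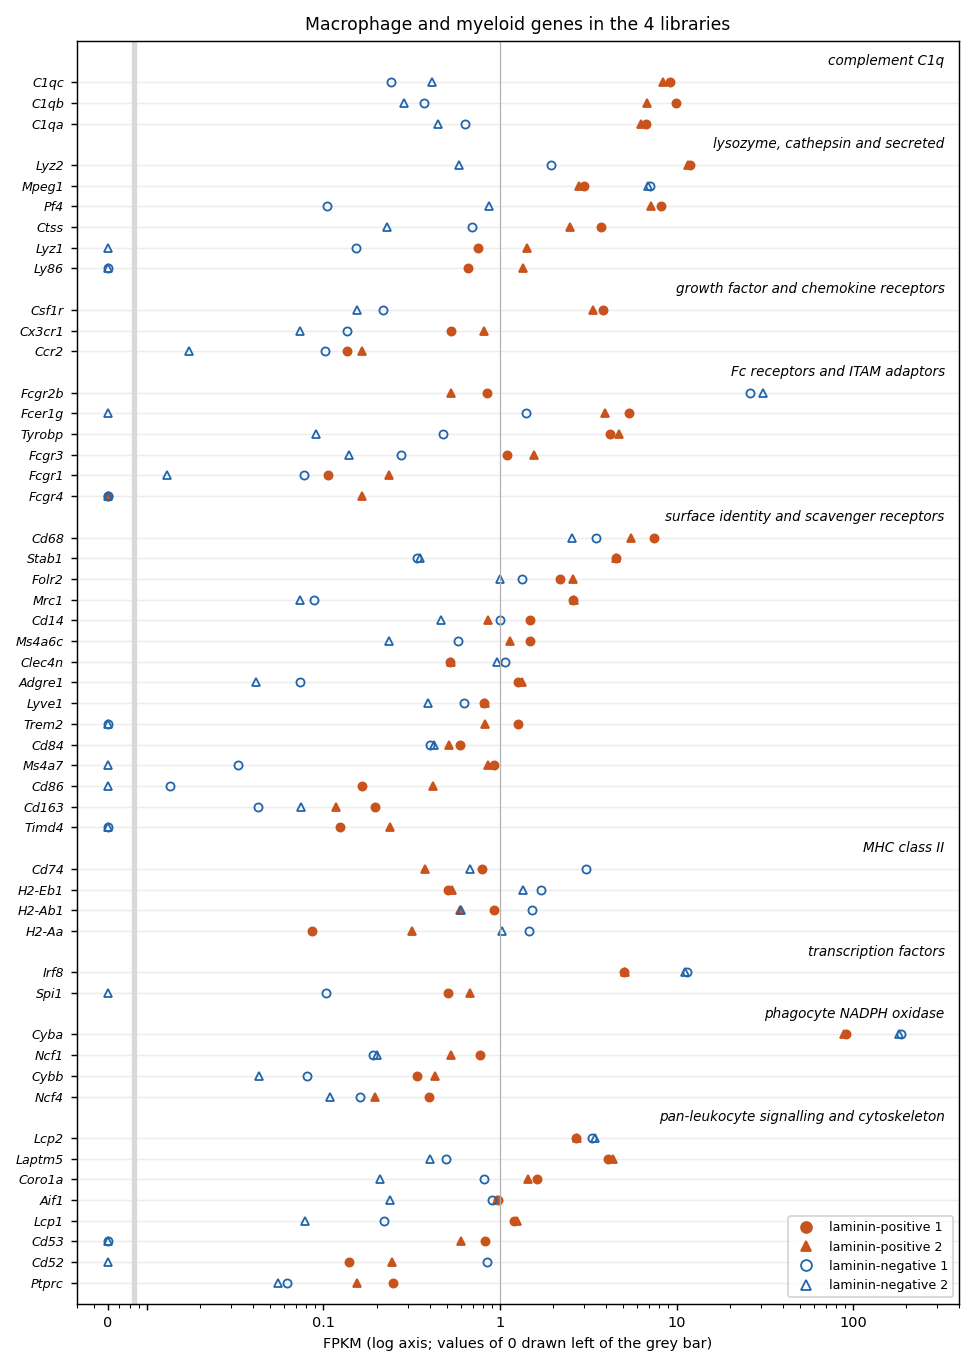
FPKM of each of the 51 genes in the 4 libraries, on a log axis, ordered by role. Filled orange symbols are laminin-positive and open blue symbols laminin-negative libraries, circles are replicate 1 and triangles replicate 2, and the grey line marks 1 FPKM. Cyba averages 90.3 FPKM in laminin-positive and 184.6 FPKM in laminin-negative cells, the C1q genes lie between 6.25 and 9.97 FPKM in laminin-positive cells, and Fcgr2b is far to the right in laminin-negative cells.

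Values in the deposited table summed to 503950 and 491475 FPKM per laminin-positive library and to 532323 and 548986 FPKM per laminin-negative library. Each laminin-positive library had 25 of the 51 genes at 1 FPKM or more, and the laminin-negative libraries had 14 and 8. Only 9 and 8 genes reached 5 FPKM in the laminin-positive libraries, and 4 in each laminin-negative library. How many fragments were sequenced is unknown here, so counting error at these levels is unknown. The sorts differed in defining markers of other interstitial cells. All 6 smooth muscle markers were called higher in laminin-positive cells, with Acta2 at 3603 ± 7.71 FPKM in laminin-positive and 94.5 ± 4.16 FPKM in laminin-negative cells (SD, n = 2 each). All 6 steroidogenic markers were called lower, and summed to 206.6 and 160.6 FPKM in laminin-positive libraries, against 4824 and 4568 FPKM in laminin-negative libraries. Most of each sum came from a row that names both Insl3 and Jak3. It had 126 and 87.0 FPKM in laminin-positive libraries, against 4080 and 3822 FPKM in laminin-negative libraries. Scaling the libraries to equal FPKM sums, taken without any row named Rn45s, moved the median of all tested genes to 0.12 on the log2 scale. It moved the share of calls in the higher direction to 64.3%, from 50.3% as deposited. It left 19 of the 51 genes called higher and 5 lower, since H2-Aa no longer passed the filter.

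The promoters of the genes with the largest calls in each direction are shown first, because these genes moved together or apart. They are RefSeq promoters on GRCm38.p6 (250 bases before to 50 after the start), from the 38 of the 51 genes that the table holds, and were limited to genes with 1 entry: the 3 largest rises and the 2 largest falls among these. Capitals mark the PU-box GAGGAA or its reverse complement TTCCTC, the purine-rich letters that the myeloid transcription factor encoded by Spi1 binds. By their letters, no 2 matches can overlap.
C1qc, chr4:136892865-136893164, minus strand: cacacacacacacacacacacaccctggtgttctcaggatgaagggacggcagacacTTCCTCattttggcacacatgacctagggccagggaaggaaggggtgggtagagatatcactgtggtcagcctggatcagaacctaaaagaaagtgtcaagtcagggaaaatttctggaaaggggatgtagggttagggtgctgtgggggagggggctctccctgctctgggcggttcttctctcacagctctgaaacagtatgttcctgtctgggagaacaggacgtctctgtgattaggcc
C1qb, chr4:136886151-136886450, minus strand: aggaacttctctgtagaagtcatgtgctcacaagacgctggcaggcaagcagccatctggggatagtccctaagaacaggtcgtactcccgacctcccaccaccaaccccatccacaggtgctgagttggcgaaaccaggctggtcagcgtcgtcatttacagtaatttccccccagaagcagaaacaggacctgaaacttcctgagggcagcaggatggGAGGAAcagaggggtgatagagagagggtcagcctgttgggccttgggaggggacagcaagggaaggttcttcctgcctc
Pf4, chr5:90772185-90772484, plus strand: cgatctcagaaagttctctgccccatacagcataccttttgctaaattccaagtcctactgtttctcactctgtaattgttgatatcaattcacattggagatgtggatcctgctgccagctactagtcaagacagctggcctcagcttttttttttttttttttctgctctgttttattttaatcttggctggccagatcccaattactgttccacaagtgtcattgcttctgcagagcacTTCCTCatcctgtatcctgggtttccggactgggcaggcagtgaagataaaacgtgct
Fcgr2b, chr1:170976022-170976321, minus strand: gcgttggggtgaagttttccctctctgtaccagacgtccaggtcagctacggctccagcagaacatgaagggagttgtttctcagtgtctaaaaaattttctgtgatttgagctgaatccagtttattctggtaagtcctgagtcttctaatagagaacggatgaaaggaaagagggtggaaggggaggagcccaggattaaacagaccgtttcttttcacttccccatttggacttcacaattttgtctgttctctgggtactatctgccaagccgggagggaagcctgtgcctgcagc
Mpeg1, chr19:12460520-12460819, plus strand: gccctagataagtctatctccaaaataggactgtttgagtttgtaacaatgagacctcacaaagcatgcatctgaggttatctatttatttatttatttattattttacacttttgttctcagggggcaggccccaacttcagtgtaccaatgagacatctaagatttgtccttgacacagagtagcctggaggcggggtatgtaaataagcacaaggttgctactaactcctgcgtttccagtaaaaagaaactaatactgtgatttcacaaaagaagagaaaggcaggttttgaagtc
The first base of the box lay at -193 from the start of C1qc, at -30 from that of C1qb and at -8 from that of Pf4. The Fcgr2b and Mpeg1 windows held none on either strand. The 15 genes called higher that had promoters listed gave 19 entries, of which 10 held the box. The 6 genes called lower gave 7 entries, of which 0 held it. Some genes had more than 1 entry. The 1 entry of Lcp2, which was tested and not called, held it too. Of the entries of genes below the filter, 9 of 18 held it, as did 28.3% of all 32851 RefSeq promoters listed. Mrc1 had 3 copies in its window, and Cd68 and Ctss 1 on each strand. A match describes letters in a window and says nothing of binding.

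Complement C1q is built from 3 chains whose genes lie side by side on chromosome 4 (GRCm38 coordinates from GENCODE are given throughout). C1qb (136880129 to 136886187) had 9.97 and 6.80 FPKM in laminin-positive libraries, against 0.370 and 0.287 FPKM in laminin-negative libraries. C1qc (136889804 to 136893065) had 9.19 and 8.38 FPKM in laminin-positive libraries, against 0.241 and 0.413 FPKM in laminin-negative libraries. C1qa (136895917 to 136898803) had 6.76 and 6.25 FPKM in laminin-positive libraries, against 0.633 and 0.446 FPKM in laminin-negative libraries. All 3 were well separated, with every laminin-positive value at least 6.25 FPKM and every laminin-negative value at most 0.633 FPKM. The log2(FPKM + 1) differences were 2.80 for C1qb (SE 0.16, limma adjusted p = 1.11e-07), 2.88 for C1qc (SE 0.12, adjusted p = 1.21e-08) and 2.29 for C1qa (SE 0.12, adjusted p = 6.94e-08). As ratios of mean FPKM they were 25.5-, 26.8- and 12.1-fold higher. Their summed level was 25.9 and 21.4 FPKM in laminin-positive libraries, against 1.24 and 1.15 FPKM in laminin-negative libraries.

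Among lysozyme, lysosomal and secreted products, the most abundant was Lyz2, the lysozyme of macrophages. It had 11.9 and 11.6 FPKM in laminin-positive libraries, against 1.95 and 0.586 FPKM in laminin-negative libraries (log2 difference 2.56, SE 0.22, limma adjusted p = 3.81e-06). The laminin-positive pair was tight while laminin-negative replicate 1 stood above replicate 2. Pf4, the platelet factor chemokine that tissue macrophages also make, had 8.22 and 7.16 FPKM in laminin-positive libraries, against 0.105 and 0.862 FPKM in laminin-negative libraries (log2 difference 2.60, SE 0.20, limma adjusted p = 1.61e-06). Ctss, the cathepsin that cleaves the invariant chain in antigen-presenting cells, had 3.74 and 2.48 FPKM in laminin-positive libraries, against 0.698 and 0.229 FPKM in laminin-negative libraries (log2 difference 1.49, SE 0.19, limma adjusted p = 6.01e-05). The calls of Lyz2, Pf4 and Ctss were lost when no variance was shared across genes, in ranges over the alternatives of 4.30e-10 to 0.0861, 7.57e-11 to 0.0724 and 3.87e-08 to 0.108. The second lysozyme gene, Lyz1, had 0.750 and 1.43 FPKM in laminin-positive libraries, against 0.153 and 0 FPKM in laminin-negative libraries. Lyz1 and Lyz2 are near-identical neighbours on chromosome 10, so the division of reads between them is uncertain. Ly86, a partner of a toll-like receptor relative, had 0.659 and 1.35 FPKM in laminin-positive libraries and was listed at 0 in both laminin-negative libraries. Both were below the filter and called higher without it (limma adjusted p = 0.0111 for Lyz1 and 0.00877 for Ly86).

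Mpeg1 (chromosome 19, 12460779 to 12465283), which encodes the pore-forming perforin-2 of phagocytes, did not follow them. It had 3.0 and 2.81 FPKM in laminin-positive libraries, against 7.10 and 6.85 FPKM in laminin-negative libraries. The groups did not overlap (log2 difference -1.03, SE 0.10), with a limma adjusted p of 1.19e-05.

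Csf1r encodes the receptor through which colony stimulating factor 1 and interleukin-34 keep macrophages alive. It had 3.83 and 3.36 FPKM in laminin-positive libraries, against 0.219 and 0.156 FPKM in laminin-negative libraries (log2 difference 1.95, SE 0.13, limma adjusted p = 3.15e-07). This was a 19.2-fold ratio of means. The fractalkine receptor gene Cx3cr1 had 0.530 and 0.815 FPKM in laminin-positive libraries, against 0.135 and 0.0734 FPKM in laminin-negative libraries. Ccr2, the chemokine receptor of monocytes recruited from blood, had 0.136 and 0.165 FPKM in laminin-positive libraries, against 0.102 and 0.0174 FPKM in laminin-negative libraries. Both were below the filter. Without it Cx3cr1 was called higher (limma adjusted p = 0.00766) and Ccr2 was not (adjusted p = 0.155).

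Of the ligands of these receptors, Cx3cl1 and Csf1 had more FPKM than their receptors in every library. Cx3cl1, the fractalkine that binds Cx3cr1, rose to 171 ± 2.67 FPKM in laminin-positive cells, against 28.2 ± 0.453 FPKM in laminin-negative cells (SD, n = 2 each, limma adjusted p = 5.36e-10). Csf1 stood at 42.1 ± 1.42 FPKM in laminin-positive and 44.9 ± 4.59 FPKM in laminin-negative cells, and did not pass the test (limma adjusted p = 0.416). Il34 rose to 3.08 ± 0.129 FPKM in laminin-positive cells, against 0.286 ± 0.0445 FPKM in laminin-negative cells (limma adjusted p = 9.00e-07). Csf1 and Il34 were chosen for the text after their values were seen, as the ligands of a member. Over all tested genes, 26.6% were called higher and 26.3% lower. Of the 11 ligands listed, 3 were called higher and 4 lower in laminin-positive cells, 2 were not called and 2 were below the filter. One of the lower calls, that of the monocyte chemokine gene Ccl2 (2.90 and 1.05 FPKM in laminin-positive libraries, against 3.38 and 3.31 FPKM in laminin-negative libraries, limma adjusted p = 0.0462), was lost under 10 of 14 alternatives, leaving out laminin-positive replicate 2 or either laminin-negative library among them, in a range of 8.36e-06 to 0.496. The phagocytosis bridging factors split, with Gas6 at 311 ± 0.262 FPKM in laminin-positive and 180 ± 3.24 FPKM in laminin-negative cells, and Pros1 at 41.7 ± 1.69 and 87.5 ± 2.07 FPKM in those groups (limma adjusted p = 4.15e-06 and 5.58e-07).

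Fc receptors bind the constant part of antibodies, and the activating ones signal through the immunoreceptor tyrosine-based motif of an adaptor, encoded by Fcer1g. The adaptors were higher in laminin-positive cells. Tyrobp, the adaptor of Trem2 and related receptors, had 4.2 and 4.73 FPKM in laminin-positive libraries, against 0.473 and 0.0910 FPKM in laminin-negative libraries (log2 difference 2.11, SE 0.15, limma adjusted p = 9.32e-07). Fcer1g had 5.41 and 3.94 FPKM in laminin-positive libraries, against 1.4 and 0 FPKM in laminin-negative libraries (log2 difference 1.86, SE 0.31, limma adjusted p = 0.000542). The SE of Fcer1g was the largest of the 26 tested members, with 1 laminin-negative library at 0. The activating receptor gene Fcgr3 had 1.10 and 1.57 FPKM in laminin-positive libraries, against 0.276 and 0.140 FPKM in laminin-negative libraries (log2 difference 0.95, SE 0.15, limma adjusted p = 0.000288). Sharing no variance across genes ended all 3 calls, in ranges of 3.47e-10 to 0.0524 for Tyrobp, 9.02e-07 to 0.191 for Fcer1g and 1.90e-05 to 0.0856 for Fcgr3. The high-affinity receptor gene Fcgr1 (0.106 and 0.234 FPKM in laminin-positive libraries, against 0.0772 and 0.0130 FPKM in laminin-negative libraries) and Fcgr4, listed above 0 in laminin-positive replicate 2 alone, were below the filter and not called without it.

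Fcgr2b (chromosome 1, 170958617 to 170976547), the inhibitory receptor of B cells and macrophages that is also known from liver sinusoidal endothelium, had the largest difference of the 51 on the log2(FPKM + 1) scale. It had 0.847 and 0.529 FPKM in laminin-positive libraries, against 26.1 and 30.9 FPKM in laminin-negative libraries. The groups lay far apart (log2 difference -4.13, SE 0.13), and limma gave an adjusted p of 1.09e-09. No other member but Cyba reached 12 FPKM in any library. In the same laminin-negative libraries its neighbour Fcgr3 (171051174 to 171064935) was below 0.3 FPKM, the leukocyte gene Ptprc was at 0.0621 and 0.0557 FPKM, and each of 5 B cell markers was below 0.6 FPKM. The extracellular parts of Fcgr2b and Fcgr3 are alike, so reads may have been split between them, which was not tested. The Fcgr2b promoter shown above held no PU-box.

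Of 15 surface identity and scavenger receptor genes, 9 were below the filter, and the 6 tested were all called higher. Over all tested genes, 26.6% were called higher and 26.3% lower. Without a filter, 10 of the 15 were called higher and 1 lower, beside 19.0% and 17.3% over all loci. Cd68, a lysosomal membrane protein of phagocytes, had 7.46 and 5.52 FPKM in laminin-positive libraries, against 3.50 and 2.56 FPKM in laminin-negative libraries (log2 difference 0.89, SE 0.15, limma adjusted p = 0.000591). The scavenger receptor gene Stab1 had 4.52 and 4.56 FPKM in laminin-positive libraries, against 0.339 and 0.354 FPKM in laminin-negative libraries (log2 difference 2.04, SE 0.12, limma adjusted p = 1.27e-07). Mrc1 had 2.59 and 2.62 FPKM in laminin-positive libraries, against 0.0889 and 0.0742 FPKM in laminin-negative libraries, the highest ratio of the tested members at 31.9-fold (log2 difference 1.74, SE 0.12, limma adjusted p = 6.96e-07). Replicates of Stab1 and Mrc1 were nearly equal within each group. The row of Stab1 reaches over the end of the neighbouring gene Nt5dc2, which had 47.2 and 47.3 FPKM in laminin-positive libraries, against 36.4 and 39.1 FPKM in laminin-negative libraries.

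Folr2, the folate receptor of resident macrophages, had 2.18 and 2.60 FPKM in laminin-positive libraries, against 1.33 and 0.999 FPKM in laminin-negative libraries, a smaller step (log2 difference 0.65, SE 0.13, limma adjusted p = 0.00201). Adgre1, the adhesion receptor most used to mark mouse macrophages, had 1.26 and 1.34 FPKM in laminin-positive libraries, against 0.0736 and 0.0414 FPKM in laminin-negative libraries, a 22.6-fold ratio (log2 difference 1.12, SE 0.13, limma adjusted p = 3.17e-05). Ms4a6c was called higher as well, at 1.48 and 1.14 FPKM in laminin-positive libraries, against 0.576 and 0.234 FPKM in laminin-negative libraries (limma adjusted p = 0.00253). Without variance shared across genes the calls of Cd68 (range 1.12e-05 to 0.148), Folr2 (0.000626 to 0.112) and Ms4a6c (0.000719 to 0.148) were lost.

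Below the filter, the lipid receptor gene Trem2 (1.27 and 0.828 FPKM) and the phosphatidylserine receptor gene Timd4 (0.124 and 0.239 FPKM) were seen in laminin-positive libraries and listed at 0 in both laminin-negative libraries. Ms4a7 had 0.929 and 0.859 FPKM in laminin-positive libraries, against 0.0331 and 0 FPKM in laminin-negative libraries. The costimulator gene Cd86 had 0.165 and 0.419 FPKM in laminin-positive libraries, against 0.0135 and 0 FPKM in laminin-negative libraries. Without a filter these 4 were called higher. The haemoglobin scavenger receptor gene Cd163, a marker of resident macrophages, had only 0.197 and 0.117 FPKM in laminin-positive libraries, against 0.0429 and 0.0747 FPKM in laminin-negative libraries, and was not called. Lyve1, Cd84 and the endotoxin coreceptor gene Cd14 were not called either, and Cd14 overlapped between groups. Clec4n, the dectin-2 gene, went the other way, at 0.519 and 0.531 FPKM in laminin-positive libraries, against 1.07 and 0.969 FPKM in laminin-negative libraries, and was called lower without a filter (limma adjusted p = 0.0125).

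MHC class II presents peptides to helper T cells, and none of its 4 listed genes was called higher in laminin-positive cells. Only 2 of the 4 were tested, and both were called lower, beside 26.3% of all tested genes. The alpha chain gene H2-Aa had 0.0865 and 0.319 FPKM in laminin-positive libraries, against 1.46 and 1.03 FPKM in laminin-negative libraries (log2 difference -0.90, SE 0.15, limma adjusted p = 0.000608). The beta chain gene H2-Eb1 had 0.505 and 0.538 FPKM in laminin-positive libraries, against 1.70 and 1.35 FPKM in laminin-negative libraries (log2 difference -0.73, SE 0.13, limma adjusted p = 0.000864). Both calls were lost without variance shared across genes, in ranges of 4.27e-05 to 0.111 and 0.000440 to 0.0686. H2-Ab1 had 0.920 and 0.593 FPKM in laminin-positive libraries, against 1.51 and 0.604 FPKM in laminin-negative libraries, and the groups overlapped. The invariant chain gene Cd74 had 0.793 and 0.377 FPKM in laminin-positive libraries, against 3.08 and 0.681 FPKM in laminin-negative libraries, so its laminin-negative mean rested on replicate 1. The class summed to 2.31 and 1.83 FPKM in laminin-positive libraries, against 7.75 and 3.66 FPKM in laminin-negative libraries. Of 6 further class II genes, H2-DMa alone passed the filter (1.02 and 1.23 FPKM in laminin-positive libraries, against 1.54 and 1.61 FPKM in laminin-negative libraries, limma adjusted p = 0.0799), and the class II transactivator gene Ciita stayed at or below 0.121 FPKM in every library. H2-DMb1, a chain of the peptide-loading partner of class II, was below the filter at 0.408 and 0.438 FPKM in laminin-positive libraries, against 0.182 and 0.0633 FPKM in laminin-negative libraries, and was called higher without it (limma adjusted p = 0.0153).

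The transcription factors parted. Spi1, which directs myeloid differentiation and acts on Csf1r among its targets, had 0.510 and 0.678 FPKM in laminin-positive libraries, against 0.104 and 0 FPKM in laminin-negative libraries, below the filter and called higher without it (limma adjusted p = 0.00418). Irf8 (chromosome 8, 120736358 to 120756694), an interferon regulatory factor of monocytes and dendritic cells, had 5.05 and 5.10 FPKM in laminin-positive libraries, against 11.4 and 11.1 FPKM in laminin-negative libraries. Replicates of Irf8 were within 0.3 FPKM of each other (log2 difference -1.01, SE 0.09), with a limma adjusted p of 6.02e-06.

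The phagocyte NADPH oxidase makes superoxide from a membrane pair, Cybb and Cyba, and cytosolic subunits. Cyba (chromosome 8, 122424776 to 122432930) was the most abundant of the 51 genes, at 91.4 and 89.1 FPKM in laminin-positive libraries, against 188 and 182 FPKM in laminin-negative libraries (log2 difference -1.02, SE 0.07, limma adjusted p = 4.74e-07). Its catalytic partner Cybb had 0.340 and 0.428 FPKM in laminin-positive libraries, against 0.0805 and 0.0434 FPKM in laminin-negative libraries. The pair therefore stood apart in level in all 4 libraries and in direction between the groups. The cytosolic subunit gene Ncf1 had 0.775 and 0.531 FPKM in laminin-positive libraries, against 0.191 and 0.202 FPKM in laminin-negative libraries. Ncf4 had 0.399 and 0.197 FPKM in laminin-positive libraries, against 0.161 and 0.110 FPKM in laminin-negative libraries. These 3 were below the filter, and without it Cybb and Ncf1 were called higher (limma adjusted p = 0.0054 and 0.0125) and Ncf4 was not. Cyba also serves oxidases outside phagocytes, of which Nox4 had 3.10 and 2.88 FPKM in laminin-positive libraries, against 1.53 and 2.71 FPKM in laminin-negative libraries, and did not pass the test (limma adjusted p = 0.0784). Nox4 was chosen after its value was seen.

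The pan-leukocyte genes were low. Ptprc, the phosphatase carried by nearly all nucleated blood cells, had 0.247 and 0.154 FPKM in laminin-positive libraries, against 0.0621 and 0.0557 FPKM in laminin-negative libraries, and was not called without a filter (limma adjusted p = 0.0533). Laptm5, a lysosomal membrane protein of blood cells, had 4.10 and 4.39 FPKM in laminin-positive libraries, against 0.497 and 0.4 FPKM in laminin-negative libraries (log2 difference 1.86, SE 0.12, limma adjusted p = 3.25e-07). The actin regulator gene Coro1a had 1.63 and 1.43 FPKM in laminin-positive libraries, against 0.816 and 0.210 FPKM in laminin-negative libraries (log2 difference 0.77, SE 0.18, limma adjusted p = 0.00450, lost without shared variance in a range of 0.000478 to 0.211). Lcp1, the plastin of leukocytes, was higher (limma adjusted p = 0.000140) at 1.20 and 1.26 FPKM in laminin-positive libraries, against 0.221 and 0.0784 FPKM in laminin-negative libraries. The row of Lcp1 also spans Cpb2 and Zc3h13, and Zc3h13 has a row of its own at 5.35 FPKM in laminin-positive and 4.58 FPKM in laminin-negative cells.

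Lcp2, a signalling adaptor of T cells and myeloid cells, was the tested member without a call, at 2.69 and 2.72 FPKM in laminin-positive libraries, against 3.30 and 3.43 FPKM in laminin-negative libraries (log2 difference -0.24, SE 0.11, limma adjusted p = 0.0924). Its groups did not overlap, and it was called lower under 3 alternatives, in a range of 0.0296 to 0.322. Aif1, an actin-binding marker of macrophages and microglia, had 0.978 and 0.965 FPKM in laminin-positive libraries, against 0.896 and 0.239 FPKM in laminin-negative libraries, and was not called without a filter. The tetraspanin gene Cd53 had 0.821 and 0.6 FPKM in laminin-positive libraries and was listed at 0 in both laminin-negative libraries, and was called higher without a filter (limma adjusted p = 0.00142). Cd52, a short surface glycoprotein of lymphocytes and monocytes, overlapped between groups, since laminin-negative replicate 1 was at 0.844 FPKM and replicate 2 at 0.

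The ratios between groups were uneven. Among the 46 genes above 0 in both groups, the ratio of mean FPKM, laminin-positive over laminin-negative, ran from 0.0242 for Fcgr2b to 54.1 for Ms4a7, which had 1 laminin-negative library at 0. The median was 3.36, and the interquartile range of log2 ratios was 3.07, beside 0.84 over the 16691 loci above 0 in both groups. Of the 46, 13 were at least 10-fold higher, 18 between 2- and 10-fold higher, 7 within 2-fold in either direction and 8 at least 2-fold lower. The 19 genes called higher ran from 2.05-fold for Folr2 to 31.9-fold for Mrc1, and were chosen by their call. Of these 19, 13 had a laminin-negative mean of 0.5 FPKM or less, where the size of a ratio is uncertain. The 6 tested germ cell markers had ratios between 1.80 and 3.71, and the 7 tested Sertoli cell markers between 0.660 and 11.2. The 4 tested endothelial markers had ratios between 0.0566 and 17.1. Unlike the 46 genes, these sets held only markers that passed the filter. Below the filter, the germ cell markers Sycp1 and Dppa4 had ratios of 1.32 and 6.32, and the Sertoli cell markers Rhox5 and Fshr 15.6 and 44.9. For the 5 endothelial markers below it, Pecam1, Kdr, Flt1, Cldn5 and Vwf, the ratios were 5.57, 8.04, 17.6, 5.84 and 4.15. Ratios of markers below the filter are uncertain in size. Over the 4 tested endothelial markers alone, the interquartile range of log2 ratios was 4.64. That value depends on the filter and cannot be set against the 3.07 of the 46 genes. Lists of such different size and level were not tested against each other.

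**Figure D2:**
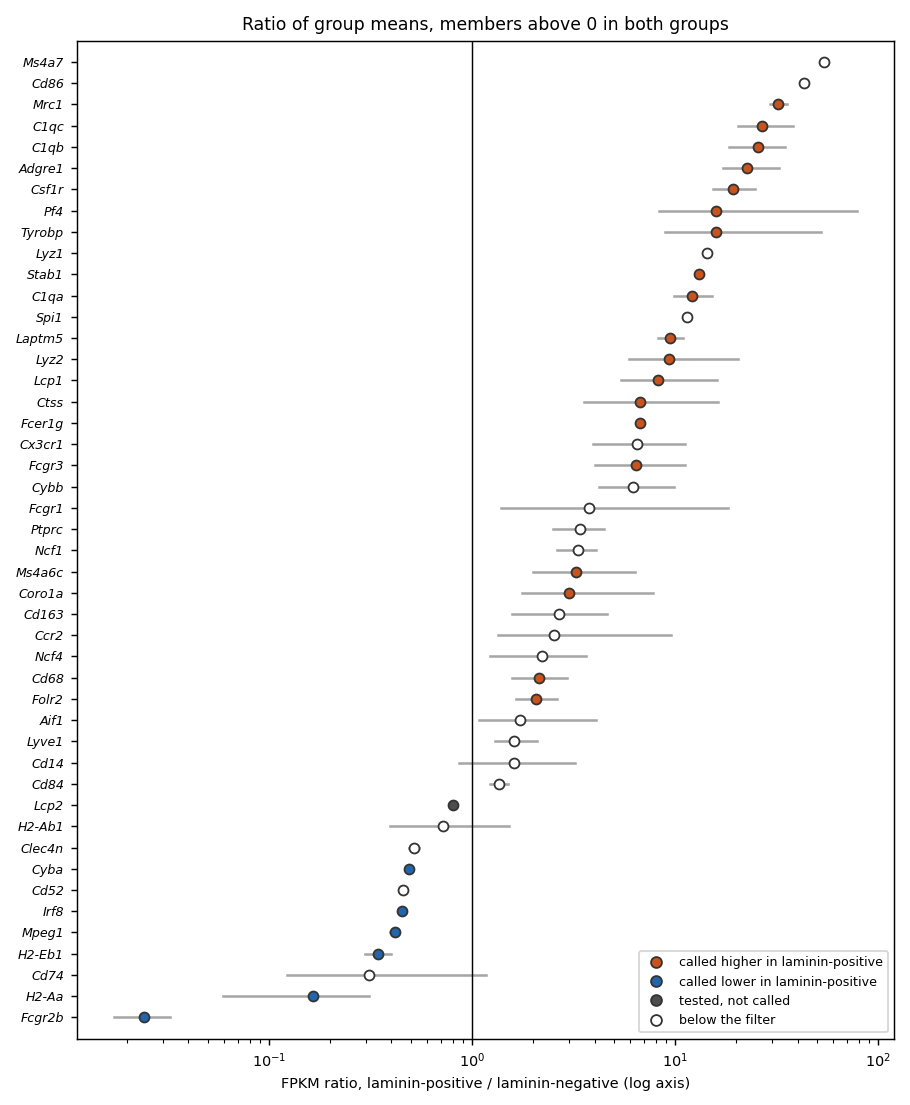
Ratio of mean FPKM, laminin-positive over laminin-negative, for the 46 genes above 0 in both groups, on a log axis. Grey bars span the 4 ratios of single libraries and are left out where a library is at 0, and fill colour gives the limma call. Ratios run from 0.0242 for Fcgr2b to 54.1 for Ms4a7, and Cyba, Irf8 and Mpeg1 sit together between 0.416 and 0.489.

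The laminin-negative libraries were less alike than the laminin-positive ones for these genes. Laminin-negative replicate 1 was above replicate 2 for 38 of the 46 genes present in either (82.6%), and at least 2-fold above for 18, among them Lyz2, Ctss, Tyrobp, Fcer1g, Cd74, H2-Ab1, Coro1a and Aif1. Replicate 2 was at least 2-fold above replicate 1 for 1 gene, Pf4. Over all loci, replicate 1 was above replicate 2 in 55.9%. Of the 17313 loci present in either, replicate 1 was at least 2-fold above for 1601 and replicate 2 for 1154. Only 14 and 8 of the 51 genes reached 1 FPKM in the laminin-negative libraries, and counting error at such levels is unknown. In laminin-positive cells, replicate 1 was above replicate 2 for 26 of 51 genes (51%), beside 47.2% over all loci. Leaving out either laminin-negative library kept 19 members called higher and 6 lower, and so did leaving out either laminin-positive library. The genes lower in laminin-positive cells with more than 5 FPKM, namely Cyba, Fcgr2b, Irf8 and Mpeg1, were close between the laminin-negative libraries.

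**Figure D3:**
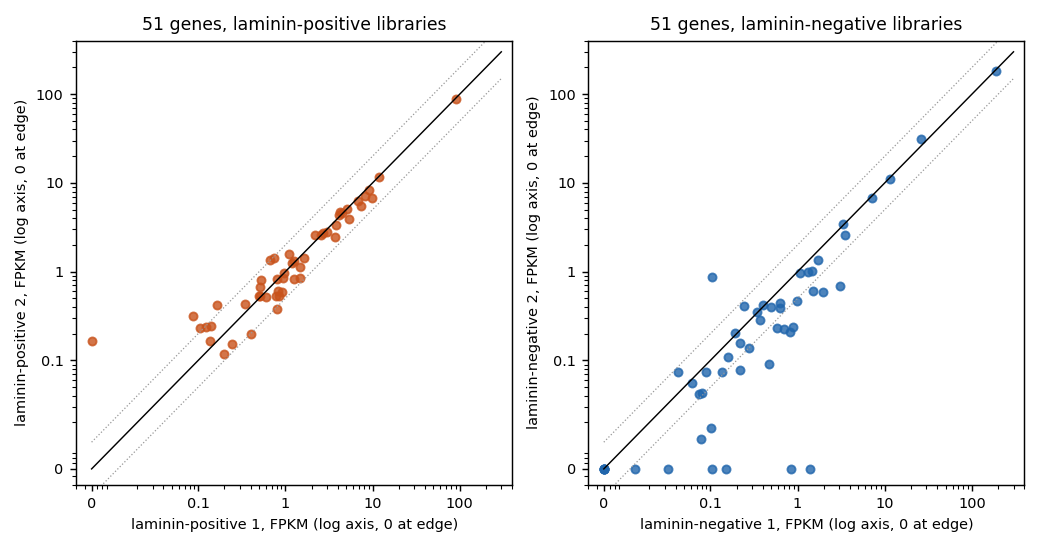
FPKM of the 51 genes in replicate 2 against replicate 1 on log axes, laminin-positive libraries on the left and laminin-negative libraries on the right. The solid line marks equal values, dotted lines a 2-fold difference, and values of 0 are drawn at the edge. Laminin-negative replicate 1 exceeds replicate 2 for 38 of 46 genes, while the laminin-positive libraries scatter about the line with 26 of 51 higher in replicate 1.

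Genes of the same lineage outside the 51 were divided too. Of 45 further myeloid genes, 24 were below the filter. Of the 21 tested, 9 were called higher and 9 lower in laminin-positive cells, and 3 were not called. Over all tested genes, 26.6% were called higher and 26.3% lower. Without a filter, 18 of the 45 were called higher (40.0%) and 7 lower (15.6%), beside 19.0% and 17.3% over all loci. Both laminin-positive libraries lay above both laminin-negative ones for 30 of the 45 (66.7%) and below for 9 (20.0%). Over loci above 0 in any library, these shares were 36.3% and 31.3%. The most abundant of the 45 are also made outside the myeloid lineage. Cebpa, a transcription factor of myeloid progenitors and of fat and liver cells, fell to 5.94 ± 0.851 FPKM in laminin-positive cells, against 70.9 ± 11.0 FPKM in laminin-negative cells (SD, n = 2 each, limma adjusted p = 2.85e-09). Maf, a transcription factor of tissue macrophages among other cells, fell to 22.4 ± 0.692 FPKM in laminin-positive cells, against 59.5 ± 0.320 FPKM in laminin-negative cells (limma adjusted p = 8.05e-08). Cebpb was at 110 ± 8.55 FPKM in laminin-positive and 148 ± 19.4 FPKM in laminin-negative cells (limma adjusted p = 0.00366, lost without shared variance in a range that reached 0.196). Axl, a receptor for Gas6, was at 111 ± 3.03 FPKM in laminin-positive and 91.0 ± 5.17 FPKM in laminin-negative cells, a difference of 0.28 on the log2 scale (limma adjusted p = 0.00815) that was lost without shared variance or without laminin-positive replicate 2, in a range that reached 0.114. The less abundant integrin gene Itgam, a defining myeloid marker, had 0.265 and 0.316 FPKM in laminin-positive libraries, against 0.0327 and 0.0118 FPKM in laminin-negative libraries.

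Products of activated macrophages were few. Of 10 listed, Tnf, Ccl3 and Ccl4 were called higher and 7 were below the filter, 2 of them at 0 in every library. The share called higher over all tested genes was 26.6%. Ccl3 had 2.30 and 1.94 FPKM in laminin-positive libraries, against 0.0849 and 0.195 FPKM in laminin-negative libraries (limma adjusted p = 5.33e-06). Ccl4 had 2.2 and 1.61 FPKM in laminin-positive libraries and was listed at 0 in both laminin-negative libraries (limma adjusted p = 5.99e-06). Tnf had 2.92 and 3.29 FPKM in laminin-positive libraries, against 1.16 and 1.10 FPKM in laminin-negative libraries (limma adjusted p = 6.46e-05). Il6 had 0.151 and 0.0982 FPKM in laminin-positive libraries, against 0.798 and 1.08 FPKM in laminin-negative libraries.

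Most markers of other leukocytes were at or near 0. Of 9 T and NK cell markers, 4 were at 0 in every library, and Lck alone passed 1 FPKM (1.91 and 1.93 FPKM in laminin-positive libraries, against 1.14 and 1.37 FPKM in laminin-negative libraries). Lck was called higher (limma adjusted p = 0.0249), and the call was lost without variance sharing, under quantile scaling and without laminin-negative replicate 1 or either laminin-positive library, in a range of 0.00930 to 0.0972. All 5 B cell markers and all 7 neutrophil markers found stayed below 1 FPKM. The neutrophil genes S100a8 and S100a9 were listed at 0 in both laminin-positive libraries and had 0.643 and 0.462 FPKM and 0.361 and 0.524 FPKM in the laminin-negative libraries. The mast cell protease genes Cma1 and Mcpt4 were likewise listed at 0 in laminin-positive libraries and stayed below 0.8 FPKM in laminin-negative ones. Hdc, which makes histamine in mast cells and other cells, was called lower at 1.61 and 0.968 FPKM in laminin-positive libraries, against 14.9 and 12.7 FPKM in laminin-negative libraries. The 5 erythroid markers stayed at or below 1 FPKM in every library. Among 7 dendritic cell markers, Zbtb46 alone exceeded 1 FPKM, at 14.9 and 17.0 FPKM in laminin-positive libraries, against 21.4 and 16.9 FPKM in laminin-negative libraries, and was not called.

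Some markers of other testis cells moved in the direction of the macrophage genes. Their calls stand beside 26.6% higher and 26.3% lower over all tested genes. Germ cell markers were called higher in 6 of 8 cases, with 2 below the filter, and summed to 40.9 and 41.0 FPKM in laminin-positive libraries, against 12.8 and 14.8 FPKM in laminin-negative libraries. Uchl1 gave the largest part, at 22.7 and 22.6 FPKM in laminin-positive libraries, against 5.70 and 6.53 FPKM in laminin-negative libraries. Of 9 Sertoli cell markers, 3 were called higher, 1 lower and 3 not, and they summed to 156 and 125 FPKM in laminin-positive libraries, against 169 and 169 FPKM in laminin-negative libraries. Clu set that direction, and without it the sums were 58.1 and 47.3 FPKM in laminin-positive libraries, against 40.0 and 32.1 FPKM in laminin-negative libraries. The endothelial markers numbered 9, with 2 called higher and 2 lower. Both laminin-positive libraries lay above both laminin-negative ones for 7 of them (77.8%), beside 36.3% of loci above 0 in any library. Their sums, 21.7 and 20.8 FPKM in laminin-positive libraries, against 169 and 178 FPKM in laminin-negative libraries, were set by Cdh5 (9.89 and 9.25 FPKM in laminin-positive libraries, against 165 and 173 FPKM in laminin-negative libraries). The 51 members themselves summed to 209 and 196 FPKM in laminin-positive libraries, against 263 and 249 FPKM in laminin-negative libraries. Cyba and Fcgr2b set that direction. Without Cyba and Fcgr2b, the sums were 116 and 107 FPKM in laminin-positive libraries, against 49.4 and 36.3 FPKM in laminin-negative libraries. No germ cell, Sertoli cell or endothelial marker was at 0 in every library. The part of such cells in the results on the 51 genes was not tested.

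**Figure D4:**
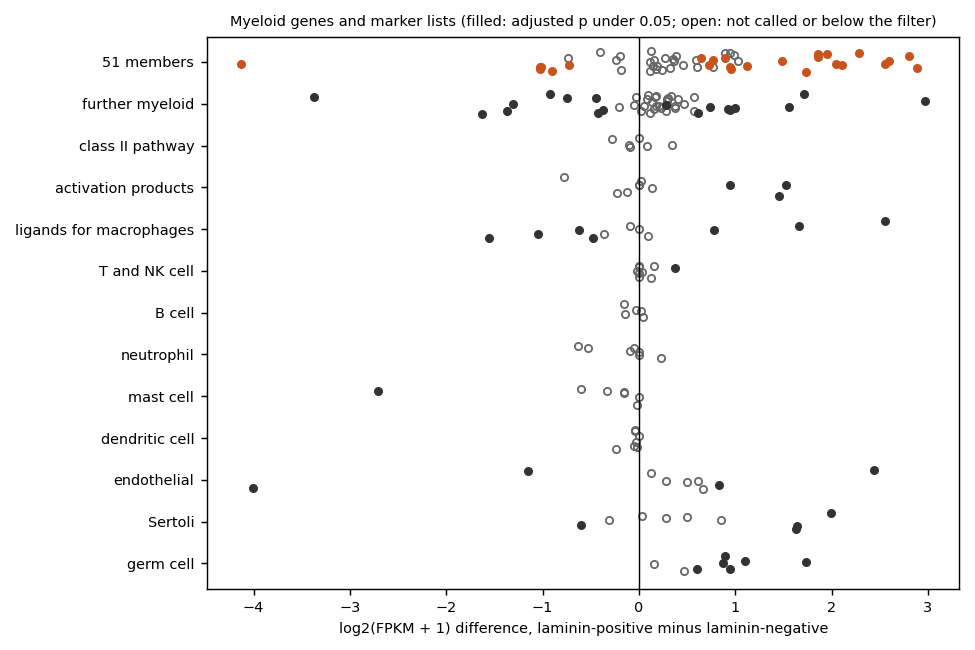
Difference in log2(FPKM + 1), laminin-positive minus laminin-negative, for the 51 genes and for genes of 12 other lists, 1 point a gene. Filled points passed the limma test and open points did not or were below the filter. The 51 genes run from -4.13 for Fcgr2b to 2.88 for C1qc, the T and NK, B and dendritic cell lists lie between -0.24 and 0.37, and the 6 tested germ cell markers all lie above 0.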

How the data were processed

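The files hold FPKM per gene for each of 4 libraries, 2 laminin-positive and 2 laminin-negative, from sorted cells of testes at postnatal day 10. The FPKM values are the authors' own, deposited in 1 table, per the file headers. TopHat2 2.1.1 and Cufflinks 2.2.1 are named, with no role, per the submitters' processing notes. Libraries were made with a directional kit, per the labels' protocols. The sources used here give no genome build, annotation, strand setting or scaling of libraries. Of 21235 loci with a unique symbol, 99.6% overlapped the GENCODE M21 gene of that symbol on GRCm38, whose coordinates are printed.

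Depth is unknown. Among genes with 1 annotated transcript, FPKM times length in kilobases was most often 0.03 to 0.04 in every library, but no empty band followed, so fragments could not be recovered. Replicates shared an identical value above 0 in 1 row (laminin-positive) and 0 rows (laminin-negative).

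Rows with at least 1 FPKM in at least 2 libraries were tested with limma 3.58.1 (R 4.3.3) on log2(FPKM + 1). The test was two-sided, its variances were moderated with a trend on intensity, and it had no replicate block. The log2 scale with this pseudocount understates the change of low genes. Benjamini-Hochberg adjustment ran over all tested genes, with 0.05 as the threshold. Residual degrees of freedom were 2, and prior ones 8.21 at the median. With 2 libraries a group, no exact permutation p can be under 0.333, so none was used. The procedure was run on simulated data with the same spread for every gene. Such data do not mimic low genes, so nothing is concluded from that run. Fold values are ratios of mean FPKM. The members and lists were chosen with earlier results of these data known. Of 152 genes in 15 other lists, 2 were not found. All members could be named, with each library's value for up to 4 genes per role by mean FPKM and for each gene called lower or tested without a call, and from other lists up to 4 by mean FPKM. Csf1, Il34, Ccl2, Itgam, Nox4, Nt5dc2 and Zc3h13 fall outside that rule. So do the library values printed for further members, among them Lyz1, Ly86, Fcgr1, Adgre1, Ms4a6c, Trem2, Timd4, Ms4a7, Cd86, Cd163, Clec4n, Ptprc, Lcp1, Cd53 and Cd52. Alternatives covered the pseudocount, filter, scaling, variance sharing, a replicate block and each library left out. The tested genes changed with the filter and with the scalings applied before it, and were kept the same where a library was left out.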

Additional observations from a re-analysis of the deposited data

How the results depend on the processing

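Values of a few FPKM from 2 libraries a group limit these results, since depth is unknown and counting error cannot be separated from other spread. Calls of 12 members rest on variance shared across genes: without it limma called 2557 of all tested genes, and 9 members higher and 5 lower, one of the 5 being Lcp2. The 12 members that lost their call had adjusted p from 0.0524 (Tyrobp, range 3.47e-10 to 0.0524 over the alternatives) to 0.211 (Coro1a, range 0.000478 to 0.211). No member reversed its direction in 358 values under 14 alternatives, and of these 343 kept their side of the threshold, 12 lost a call and 3 (Lcp2) gained one. Without a filter 30 members were called higher. The median log2 difference over tested members was 1.04, against 1.55 and 2.54 with pseudocounts of 0.5 and 0.1, 0.59 without a filter and 1.61 with a mean of at least 1 FPKM. Left-out libraries gave 0.983 to 1.12 for that median and 5197 to 6318 genes called, of 6533 in the full set. The interquartile range of log2 ratios over tested members was 3.89, against 3.07 without a filter, 4.77 with a mean of at least 1 FPKM, 3.07 with equal FPKM sums, and 3.65 to 4.67 with a library left out, the last without laminin-negative replicate 1. With the replicate number as a replicate block 19 members were called higher and 6 lower, and 3376 and 3343 of all genes. Same-numbered libraries did not deviate together (r = 0.00809 over 12348 genes, which are not independent), so the numbers were not treated as pairs.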
